A study of Mus musculus with 6 samples.

Results

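Interferon regulatory factors (IRFs) were examined as a gene family in 4T1 cells, a mouse mammary carcinoma line. The members were the 8 genes Irf1, Irf2, Irf3, Irf4, Irf5, Irf7, Irf8 and Irf9, chosen by symbol from 22105 genes in the deposited table, in which all 8 were found. RNA was sequenced from 3 libraries of 4T1 cells exposed for 24 h to CM-PEG-PLGA@DOX/R848 nanoparticles that carried the equivalent of 2 µg/mL of doxorubicin, and from 3 libraries of 4T1 cells given phosphate-buffered saline (PBS) for the same time. DOX in the name stands for doxorubicin, an anthracycline that poisons topoisomerase II, and R848 for resiquimod, an agonist of the endosomal receptors TLR7 and TLR8. Both groups were the same cell line, and cells given free drugs or empty particles were not analysed here. The labels name no separate cultures for the replicates. Each p-value therefore measures the spread among these libraries alone, which may be technical.

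IRFs are transcription factors that share an amino-terminal DNA-binding domain and recognise DNA with GAAA repeats, the core of the interferon-stimulated response element. IRF3 and IRF7 are phosphorylated by the kinases TBK1 and IKKε after a nucleic acid is sensed and then switch on type I interferon genes, while IRF5 acts downstream of TLR7 and the adaptor MyD88. IRF9 is the DNA-binding part of ISGF3, the complex that carries the type I interferon signal to the nucleus. IRF1 activates interferon-γ and antigen presentation genes, IRF2 competes for many of the same sites, and IRF4 and IRF8 are best known in B cells, macrophages and dendritic cells, where they bind DNA with PU.1.

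Of the 8 members, 5 had more transcript after nanoparticles, 1 had less, 1 did not pass the test and 1 was almost absent. Over all 10863 tested genes, 40.5% were called higher and 46.0% lower at an adjusted p under 0.05. Irf7 rose most, followed by Irf8, Irf5, Irf9 and Irf1, while Irf2 fell. Irf3 did not pass, and Irf4 stayed below 0.1 FPKM in every library, under the level tested. Levels are FPKM, fragments scaled to transcript length and to the mapped fragments of the library, so they can be set side by side between genes. The depth of the libraries is unknown, since the files give no counts.

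The sequences before the start sites of 4 members were compared, since these genes moved in opposite directions and IRF genes can themselves be targets of IRF and STAT proteins. The stretches were taken from RefSeq promoters (GRCm38.p6) and end before the first annotated exon; that of Irf2 also overlaps an exon of Gm16675. They are written 5′ to 3′ in the direction of the gene, and capitals mark a match to the IRF motif, GAAA and GAAA with any 2 bases between them, on either strand or to the STAT motif TTCNNNGAA, which reads alike on both strands.
Irf7, chr7:141266482-141266674, minus strand: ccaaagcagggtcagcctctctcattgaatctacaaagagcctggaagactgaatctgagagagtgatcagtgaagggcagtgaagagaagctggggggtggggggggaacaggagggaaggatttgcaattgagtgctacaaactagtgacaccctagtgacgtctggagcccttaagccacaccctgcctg
Irf1, chr11:53769764-53770013, plus strand: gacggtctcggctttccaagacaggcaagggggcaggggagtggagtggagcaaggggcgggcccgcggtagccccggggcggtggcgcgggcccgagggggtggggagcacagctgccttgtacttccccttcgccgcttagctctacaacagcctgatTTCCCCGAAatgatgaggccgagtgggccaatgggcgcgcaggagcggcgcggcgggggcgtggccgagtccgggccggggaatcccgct
Irf8, chr8:120736108-120736357, plus strand: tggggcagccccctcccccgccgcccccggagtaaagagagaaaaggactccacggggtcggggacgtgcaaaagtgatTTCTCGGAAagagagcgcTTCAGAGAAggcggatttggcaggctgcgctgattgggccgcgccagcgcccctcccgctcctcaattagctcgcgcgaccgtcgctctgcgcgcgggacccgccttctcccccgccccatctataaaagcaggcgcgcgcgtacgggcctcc
Irf2, chr8:46739495-46739731, plus strand: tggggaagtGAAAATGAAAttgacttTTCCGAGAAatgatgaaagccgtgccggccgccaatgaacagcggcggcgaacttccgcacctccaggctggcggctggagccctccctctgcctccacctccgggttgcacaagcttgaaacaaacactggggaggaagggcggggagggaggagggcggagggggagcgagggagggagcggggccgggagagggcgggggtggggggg
Irf2 was the only member of the 8 with a match to the IRF motif in its promoter window (250 bases before to 50 after the start). In that window the IRF match began 241 bases before the start and a STAT motif match followed 224 bases before the start, without overlap. Irf1 had 1 STAT motif match, beginning 90 bases before the start, and Irf8 had 2, beginning 171 and 153 bases before the start. The windows of Irf3, Irf4, Irf5, Irf7 and Irf9 held neither motif in these letters. Over 32851 RefSeq promoter windows of this length, 3.44% held the IRF motif and 8.3% the STAT motif. Tested genes with the IRF motif were called higher in 58.3% and lower in 28.5% of cases, whereas Irf2 fell. Any link between these motifs and the direction of a member was not tested. The STAT motif was added after the promoters of the members had been read.

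Irf7, the inducible amplifier of type I interferon transcription (chromosome 7, 141262706 to 141266481, minus strand, GRCm38), stood at 241, 235 and 240 FPKM in the nanoparticle libraries, against 9.77, 9.56 and 9.92 FPKM in the PBS libraries. Every nanoparticle library was far above every PBS library, and the libraries of a group lay close together. The ratio of the group means was 24.5, and the log2 fold change was 4.48 with a standard error of 0.028 (adjusted p = 8.71e-13, limma). Fold changes here are nanoparticle minus PBS on the log2(FPKM + 1) scale, which understates the change of low genes. In size this was the 10th highest of 10863 tested genes.

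Irf3, the partner of Irf7 that is made without stimulation (chromosome 7, 44997648 to 45002848), measured 21.01, 20.9 and 18.6 FPKM in nanoparticle libraries and 19.3, 18.5 and 19.2 FPKM in PBS libraries. The groups overlapped. Its log2 fold change was 0.078 with a standard error of 0.051 (adjusted p = 0.174, limma). Nanoparticle replicate 3 was the low library: without it the log2 fold change was 0.13 and passed as higher (adjusted p = 0.0159, limma). Rescaled so that every library sums to the same total (TPM) it was -0.070 and did not pass, so the sign of the Irf3 difference depended on the scaling.

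Irf5, which acts with MyD88 in the induction of inflammatory cytokines (chromosome 6, 29526625 to 29541871), measured 19.6, 18.5 and 17.3 FPKM in nanoparticle libraries, against 5.86, 6.72 and 6.85 FPKM in PBS libraries. All nanoparticle libraries were higher than all PBS libraries (log2 fold change 1.38 with a standard error of 0.066, adjusted p = 2.77e-08, limma). Irf5 shares 411 exonic bases with Tnpo3, a gene on the opposite strand that averaged 64.5 ± 1.75 FPKM in nanoparticle cells and 97.9 ± 3.01 FPKM in PBS cells (SD, n = 3 each). No source used here says whether counting was by strand, so reads of the shared stretch may not be told apart. Tnpo3 fell while Irf5 rose.

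Irf9, the DNA-binding subunit of ISGF3 (chromosome 14, 55603571 to 55610030), measured 48.4, 50.0 and 48.0 FPKM after nanoparticles, against 21.8, 22.3 and 22.4 FPKM with PBS. The groups were well apart (log2 fold change 1.10 with a standard error of 0.032, adjusted p = 1.07e-09, limma). Irf9 and its neighbour Rnf31 share 123 exonic bases on the same strand. Rnf31, which encodes a subunit of the linear ubiquitin ligase, averaged 10.9 ± 0.209 FPKM in nanoparticle cells and 9.65 ± 0.406 FPKM in PBS cells (SD, n = 3 each). Other members also share exonic bases with a gene on the opposite strand: Irf1 135 with Gm17334, Irf3 88 with Bcl2l12 and Irf7 45 with Phrf1. The limit on counting by strand given for Irf5 holds for them too.

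Irf1 and Irf2 moved in opposite directions. Irf1, an activator of interferon-γ response genes (chromosome 11, 53770014 to 53778374), measured 56.9, 55.1 and 58.4 FPKM in nanoparticle libraries, against 32.3, 33.6 and 32.3 FPKM in PBS libraries (log2 fold change 0.78 with a standard error of 0.033, adjusted p = 1.42e-08, limma). Irf2, its antagonist at many promoters (chromosome 8, 46739732 to 46847458), measured 9.54, 10.2 and 10.3 FPKM in nanoparticle libraries, against 20.7, 21.7 and 21.2 FPKM in PBS libraries (log2 fold change -1.01 with a standard error of 0.043, adjusted p = 1.36e-08, limma). Neither gene's groups overlapped. The nanoparticle mean of Irf1 was 1.74 times its PBS mean, and that of Irf2 was 0.472 of its PBS mean.

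Irf8, a factor of myeloid and B lineage cells (chromosome 8, 120736358 to 120756694), was present in both groups at 12.6, 14.5 and 13.4 FPKM in nanoparticle libraries, against 4.21, 4.37 and 4.12 FPKM in PBS libraries. It was higher in every nanoparticle library (log2 fold change 1.47 with a standard error of 0.058, adjusted p = 7.64e-09, limma). In bulk samples, more cells of a type and more RNA per cell cannot be told apart. Irf4, its close relative (chromosome 13, 30749226 to 30766976), was listed at 0.0504, 0.0628 and 0.0675 FPKM in nanoparticle libraries and at 0.0108, 0.0116 and 0 FPKM in PBS libraries. Those values lie at the floor of the table, where nanoparticle libraries held more genes above 0 (18319 to 18509) than PBS libraries did (13544 to 13808). No fold is given for Irf4.

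**Figure D1:**
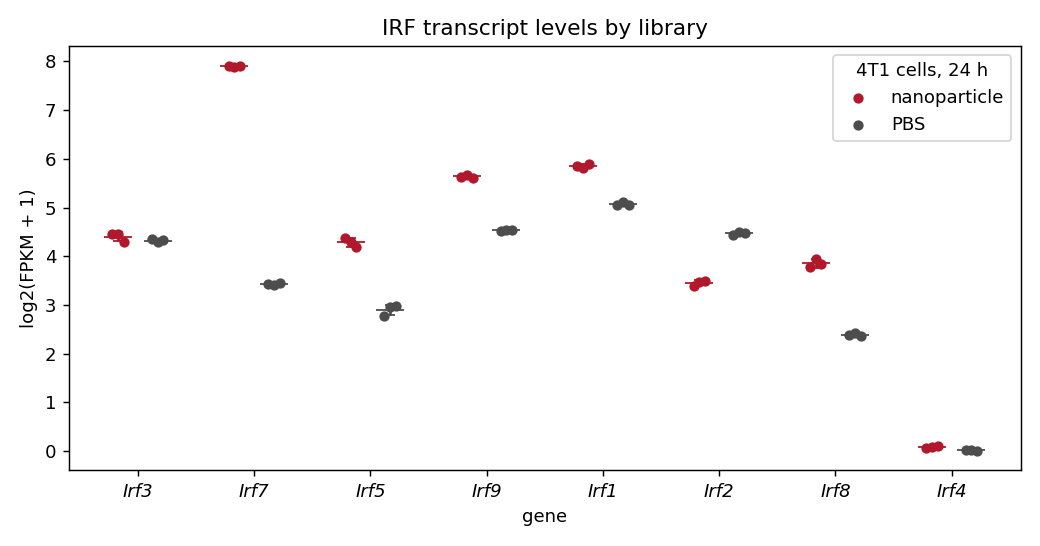
Transcript level of the 8 IRF genes, as log2(FPKM + 1), in each nanoparticle library (red, left of each pair) and each PBS library (grey, right); points are libraries, and bars are the mean ± SD of 3. Irf7 shows the widest gap (239 against 9.75 FPKM on average), Irf2 is the member with lower nanoparticle values, the Irf3 groups overlap and Irf4 sits near 0.

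Of the 7 tested members, 4 of the 5 called higher and the 1 called lower changed at least 2-fold. Irf2 and Irf9 lay near that line and did not keep to it under every setting. The log2 fold change of Irf2 was -0.98 without nanoparticle replicate 1, and that of Irf9 was 0.97 when rescaled to TPM. With the trend of span and length removed, as described below, they were -0.45 and 0.66. Over all tested genes 10.2% were called at least 2-fold higher and 13.5% at least 2-fold lower. As 86.4% of all tested genes were called in either direction, being called is close to the background, and the size of a change says more than the call. The median log2 fold change was 1.10 over the 7 members and -0.058 over all tested genes. Counted from the highest fold change, Irf8 was 456th, Irf5 533rd, Irf9 917th and Irf1 1673rd, and Irf2 was 1435th counted from the lowest.

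**Figure D2:**
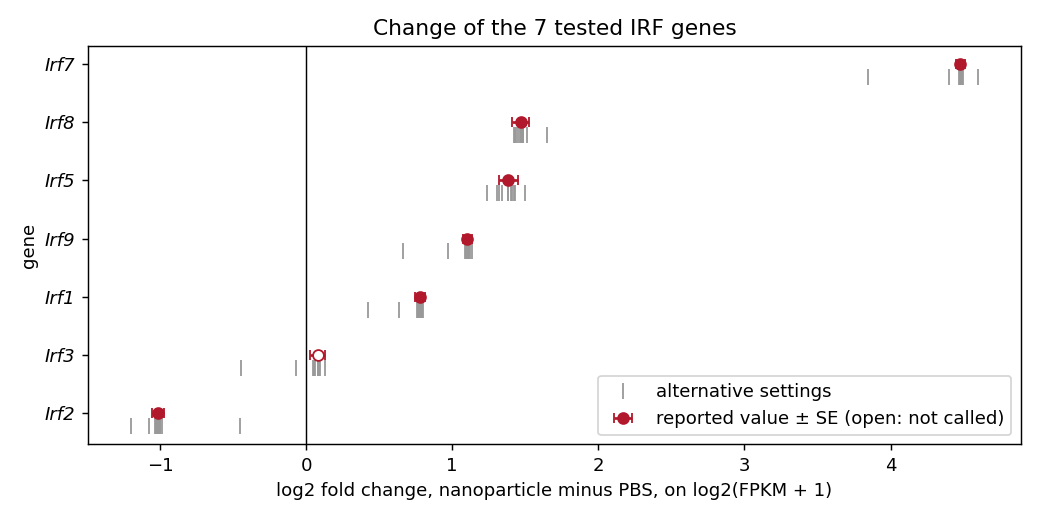
Log2 fold change of the 7 tested IRF genes, nanoparticle minus PBS (horizontal axis), with the standard error; the open point is not called, and grey ticks are the same value under each alternative setting. Irf7 at 4.48 stands apart from the other members, and only Irf3 has ticks on both sides of 0.

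The make-up of the family's transcripts differed between the groups. The 8 genes together summed to 407 ± 2.28 FPKM in nanoparticle cells and 116 ± 1.44 FPKM in PBS cells (SD, n = 3 each), and without Irf7 to 168 ± 1.63 FPKM in nanoparticle cells and 106 ± 1.52 FPKM in PBS cells. Irf7 made up 58.7% ± 0.503 of the sum in nanoparticle cells and 8.43% ± 0.217 in PBS cells (SD, n = 3 each). Irf1 made up 14.0% ± 0.373 of the sum in nanoparticle cells and 28.3% ± 0.487 in PBS cells, where it led, so its share was lower although its level was higher. Irf2 took 2.46% ± 0.107 of the sum in nanoparticle cells and 18.3% ± 0.219 in PBS cells.

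In nanoparticle cells the levels ran, from high to low, Irf7, Irf1, Irf9, Irf3, Irf5, Irf8, Irf2 and Irf4, and only the ranges of Irf3 and Irf5 overlapped between neighbours. In PBS cells the order was Irf1, Irf9, Irf2, Irf3, Irf7, Irf5, Irf8 and Irf4, and no neighbours overlapped. Irf7 thus stood in place 1 after nanoparticles and in place 5 with PBS, and Irf2 in place 7 after nanoparticles and in place 3 with PBS.

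**Figure D3:**
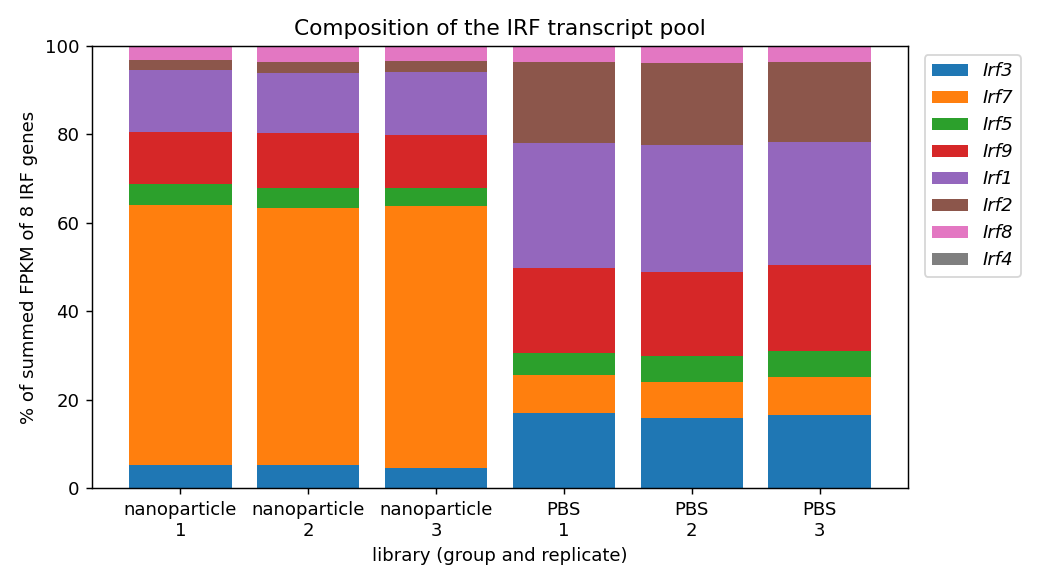
Share of each gene in the summed FPKM of the 8 IRF genes, in percent, for each nanoparticle library (left) and each PBS library (right). Irf7 fills 58.7% of the nanoparticle bars on average and 8.43% of the PBS bars; Irf4 is too low to be seen.

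Ratios within a library set the members of 3 pairs side by side. The FPKM of Irf1 was 5.97, 5.42 and 5.69 times that of Irf2 in nanoparticle libraries, against 1.56, 1.55 and 1.52 times in PBS libraries. The FPKM of Irf7 was 11.5, 11.3 and 12.9 times that of Irf3 in nanoparticle libraries, against 0.506, 0.517 and 0.516 times in PBS libraries, so the order of this pair was turned round. The ratio of Irf9 to Irf7 was 0.201, 0.213 and 0.200 in nanoparticle libraries, against 2.24, 2.34 and 2.26 in PBS libraries. The groups did not overlap for any of the 3 pairs, with differences of the ratio on the log2(FPKM + 1) scale of 1.79, 4.40 and -3.38. Each gave p = 0.1 in a two-sided exact permutation test, the smallest that 3 against 3 libraries allow, and 0.1 after Benjamini-Hochberg adjustment over the 3 pairs. These differences follow from the fold changes of the members given above. The ratios restate those changes and are no further support for them.

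The genes differ in length in the genome, and the change of all genes went with this length. The 10836 tested genes with a span were put into 4 groups of 2709 by its length. Of those with the longest spans (51.7 kb or more), 81.1% were called lower and 10.4% higher, whereas of those with the shortest (up to 10.2 kb), 25.8% were called lower and 60.1% higher. Irf2 spans 108 kb, while the spans of Irf7 (3.78 kb), Irf3 (5.2 kb), Irf9 (6.46 kb) and Irf1 (8.36 kb) lie in the shortest group. With the trend of all genes with span and exonic length removed, Irf2 was still lower (log2 fold change -0.45, adjusted p = 2.74e-06, limma) and Irf1 (0.42) and Irf9 (0.66) were still called higher. Irf3 had a value of 0.078 without this step and was then called lower at -0.44 (adjusted p = 1.75e-05, limma). Irf5 and Irf8, at 15.2 and 20.3 kb, moved little, to 1.24 and 1.44, and Irf7 to 3.85.

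**Figure D4:**
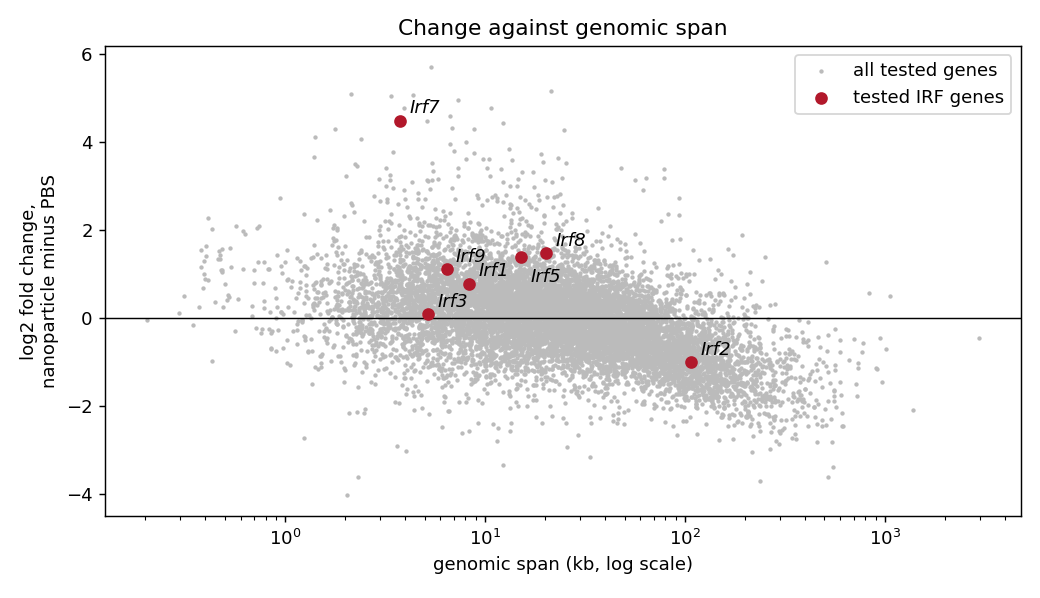
Log2 fold change, nanoparticle minus PBS, against genomic span in kb on a log axis, for all tested genes (grey) and the 7 tested IRF genes (red). Genes with long spans lie mostly below 0, where Irf2 lies at 108 kb, and Irf7 lies at 4.48 among short genes.

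Of 15 tested kinases and adaptors that lead to IRF activation, 4 rose, 10 fell and 1 did not pass, next to 40.5% called higher and 46.0% called lower over all tested genes. Their median log2 fold change was -0.20, against -0.058 over all tested genes. Mavs, the mitochondrial adaptor of the RNA sensors, averaged 13.9 ± 0.646 FPKM in nanoparticle cells and 29.1 ± 0.72 FPKM in PBS cells (log2 fold change -1.01). Ikbke, which encodes the IRF kinase IKKε, averaged 14.3 ± 0.249 FPKM in nanoparticle cells and 25.9 ± 0.853 FPKM in PBS cells (-0.81). Myd88, the adaptor of TLR7, rose to 52.1 ± 1.47 FPKM in nanoparticle cells, against 28.5 ± 1.74 FPKM in PBS cells (0.85; SD, n = 3 each). All 3 were called with adjusted p from 1.25e-08 to 6.14e-08 (limma).

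Endosomal receptors of R848 or of nucleic acids were close to the floor, apart from Tlr3. Tlr7 measured 0.176, 0.197 and 0.163 FPKM in nanoparticle libraries and 0.163, 0.123 and 0.198 FPKM in PBS libraries. Tlr8 was listed at 0.104, 0.151 and 0.0871 FPKM in nanoparticle libraries and at 0.0151, 0 and 0 FPKM in PBS libraries. Tlr3, the double-stranded RNA receptor, rose by 1.91 on the log2 scale. It was the 1 tested gene of a list of 5, of which 1 is not itself a receptor. Ifnb1, the type I interferon gene that IRF3 and IRF7 activate, measured 1.23, 0.518 and 0.731 FPKM in nanoparticle libraries and 0, 0.221 and 0.156 FPKM in PBS libraries, without overlap but below the level tested. Near this floor the libraries differed in general: 18319 to 18509 genes were above 0 in nanoparticle libraries and 13544 to 13808 in PBS libraries. No fold is therefore given for Tlr8 or Ifnb1.

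Stat2, which encodes a partner of IRF9 in ISGF3, rose, while the genes of the type I interferon receptor chains and their kinases fell. Stat2 averaged 65.5 ± 0.842 FPKM in nanoparticle cells and 9.0 ± 0.137 FPKM in PBS cells (SD, n = 3 each; log2 fold change 2.73, adjusted p = 8.43e-12, limma). The log2 fold change of Irf9 was 1.10. Jak1, a kinase of both interferon receptors, averaged 15.6 ± 0.44 FPKM in nanoparticle cells and 37.0 ± 0.851 FPKM in PBS cells (log2 fold change -1.20). Tyk2, Ifnar1 and Ifnar2, the other kinase and the receptor chains of type I interferon, were named after their values were seen and also fell, with log2 fold changes of -1.22, -0.37 and -0.90. On the interferon-γ side, the kinase gene Jak2 fell by 1.61 and the receptor gene Ifngr1 fell by 0.36 on the log2 scale. The receptor gene Ifngr2, named after its values were seen, did not pass (log2 fold change 0.099, adjusted p = 0.0599, limma).

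Of 11 genes of IRF corepressors, IRF turnover or brakes on nearby signalling, 5 were called higher, 5 lower and 1 did not pass (median log2 fold change 0.042). These shares were near the 40.5% called higher and 46.0% called lower over all tested genes. Usp18, which dampens the type I interferon receptor, rose by 4.28, Tnfaip3, a brake on NF-kB signalling, by 2.40, and Socs1, an inhibitor of JAK kinases, by 2.02 on the log2 scale. Socs1 passed the filter through its nanoparticle values alone and could only rise. The IRF2-binding corepressors were named after their values were seen: Irf2bp1, Irf2bp2 and Irf2bpl had log2 fold changes of -0.35, -0.32 and -0.92 and were called lower, as Irf2 was. Of 8 partners of Irf4 and Irf8, 5 stayed under 1 FPKM in every library. Spi1, which encodes PU.1, was listed at 0.315, 0.433 and 0.271 FPKM in nanoparticle libraries and at 0, 0.0606 and 0 FPKM in PBS libraries. Of the 3 tested, Runx1 fell by 0.66 and Tcf3 fell by 0.14 on the log2 scale, and Batf3, at 0.20, did not pass (adjusted p = 0.119, limma).

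Textbook targets of the family mostly rose, where 40.5% of all tested genes were called higher and 46.0% lower. All 14 tested targets of ISGF3 were called higher, with a median log2 fold change of 2.89, of which Usp18, Oasl2 (3.32) and Bst2 (2.98) had the smallest adjusted p. Of 8 tested targets of IRF3 and IRF7, 6 rose, 1 fell and 1 did not pass (median 3.30). Zbp1 had a log2 fold change of 4.43, Isg15 of 3.66 and Rsad2 of 3.59. The target that fell, named after its values were seen, was the chemokine gene Ccl5, at 6.05, 6.74 and 7.59 FPKM in nanoparticle libraries, against 10.7, 10.8 and 10.3 FPKM in PBS libraries (log2 fold change -0.58). Of 15 tested targets of IRF1, 12 rose and 3 fell (median 1.29), and those with the smallest adjusted p were Gbp3, Gbp2 and B2m, with log2 fold changes of 3.83, 3.30 and 1.42. Of those 12, Il15 and Cxcl9 were under 1 FPKM in every PBS library and could only rise. The 3 that fell, also named after their values were seen, were Tap2 (-0.34), Nlrc5 (-0.17) and Casp1 (-0.42).

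The IRF motif was then looked for before the starts of 7 of the named targets, Isg15, Rsad2, Gbp3, Gbp2, B2m, Bst2 and Oasl2. Zbp1 and Usp18 were left out of this step. Where the motif was found, the match nearest to the start is shown with 10 bases on each side, in the direction of the gene (RefSeq promoters, GRCm38.p6). Capitals mark the motif, and a match read as TTTC repeats lies on the opposite strand.
Isg15, chr4:156200865-156200894, minus strand: aaaggaaaccGAAACAGAAAatagctctgg
Rsad2, chr12:26456553-26456582, minus strand: ctggtccaacTTTCATTTTCagaaaacaga
Gbp3, chr3:142559995-142560024, plus strand: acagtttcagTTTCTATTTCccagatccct
Gbp2, chr3:142620594-142620623, plus strand: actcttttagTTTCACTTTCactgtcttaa
B2m, chr2:122147538-122147567, plus strand: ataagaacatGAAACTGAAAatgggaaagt
Bst2, chr8:71537577-71537606, minus strand: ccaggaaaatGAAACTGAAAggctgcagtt
The match began 66 bases before the start in Isg15, 120 in Rsad2, 39 in Gbp3, 59 in Gbp2, 139 in B2m and 124 in Bst2. Oasl2, which rose by 3.32, had no match in these letters in its window. Over the whole windows, Isg15 held 3 matches, and Gbp3 and Bst2 held 2 each. These genes are textbook targets named by their adjusted p, so the matches are a description and no independent support.

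The motif was then read over all tested genes. RefSeq promoters were found for 8774 of the 10863 tested genes (80.8%), and 326 of these had the motif. Of the 326, 190 were called higher (58.3%) and 93 lower (28.5%), with a median log2 fold change of 0.33. Of the 8448 genes without a match, 40.0% were called higher and 46.3% lower, with a median of -0.067. Among 33 genes with 2 or more matches, overlapping matches counted, 27 were called higher (81.8%), 20 of them at least 2-fold, and the median was 1.54. For the STAT motif, 732 genes with a match were called higher in 42.3% and lower in 43.9% of cases, next to 40.5% and 45.8% of genes without it. These shares are a description, with no test.

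The shares with the IRF motif include 22 genes that were under 1 FPKM in every PBS library and 3 that were under it in every nanoparticle library, whose direction the filter fixed. Of the other 301, 55.8% were called higher and 29.9% lower, with a median log2 fold change of 0.26. Of the 33 genes with 2 or more matches, 3 passed through their nanoparticle values alone. Of the other 30, 24 were called higher (80.0%), with a median of 1.47. Without a match, the 8122 genes not fixed in this way were called higher in 39.7% and lower in 46.1% of cases. A further 348 genes of the table with the motif were below the level tested. Genes with and without the motif had median spans of 21.4 and 23.3 kb. In the group of longest spans, 66.7% of 66 motif genes and 81.5% of 2123 genes without a match were called lower. In the group of shortest spans, 71.4% of 91 motif genes and 59.7% of 2086 genes without a match were called higher.

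**Figure D5:**
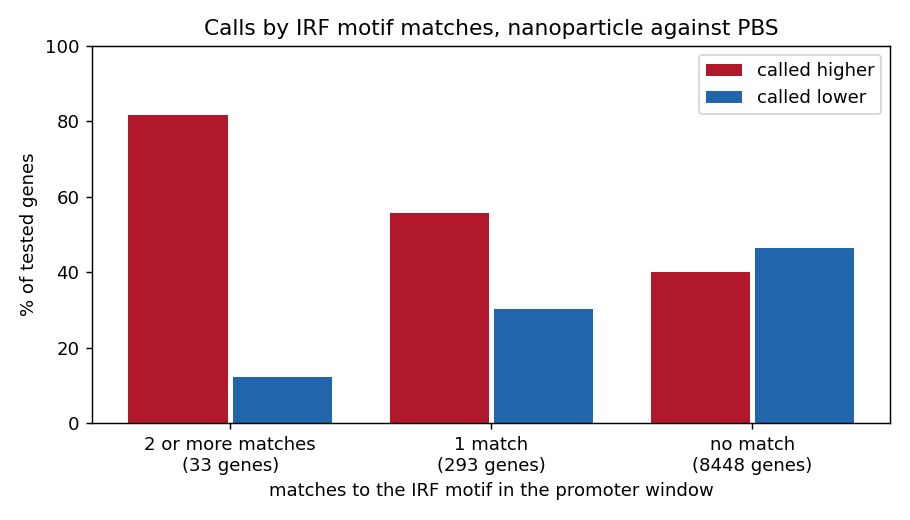
Percent of tested genes called higher (red) and lower (blue) in nanoparticle against PBS cells, by the number of IRF motif matches in the promoter window. The share called higher was 81.8% with 2 or more matches, 55.6% with 1 match and 40.0% with none. Genes whose direction the filter fixed are included.

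By the distance of log2(FPKM + 1) profiles centred on their mean over the 6 libraries, the tested genes nearest to Irf7 were Zbp1 (distance 0.123), Egr1 (0.136) and Egr2 (0.192). Those nearest to Irf9 were Med22 (0.0126), Ccna2 (0.0322) and Jpt1 (0.0403), and those nearest to Irf8 were Rhob (0.0531), Wdr77 (0.0603) and Snf8 (0.077). Irf5 lay nearest to Xpnpep2 (0.0881), Hsh2d (0.0972) and Wdr46 (0.101), and Irf2 to Trmt2b (0.0468), Pepd (0.0503) and Tspan14 (0.0562). With 2 groups of libraries this measure mostly reads the size of the change, and a zero distance would mean the same change in the same libraries.

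Markers of other cells were read beside the myeloid members Irf8 and Irf5. Of 15 myeloid markers, 11 reached 1 FPKM in no library. Ptprc (CD45) was listed at 0.581, 0.389 and 0.612 FPKM in nanoparticle libraries and at 0 in all 3 PBS libraries, and Fcer1g at 0 in all 6. The 15 markers summed to 44.7 to 50.3 FPKM in nanoparticle libraries, against 23.1 to 26.8 FPKM in PBS libraries. Most of each sum came from Cd68 (means of 35.3 FPKM with nanoparticles and 12.2 FPKM with PBS) and Cd14 (7.13 and 11.9 FPKM). Of the markers, 5 were at 0 in every PBS library. Over all genes, 18319 to 18509 were above 0 in nanoparticle libraries, against 13544 to 13808 in PBS libraries. The 4 tested were Cd68 (log2 fold change 1.47), Mpeg1 (1.36) and Csf1r (1.23), which rose, and Cd14, named after its values were seen, which fell by 0.67. Both Mpeg1 and Csf1r passed the filter through their nanoparticle values alone and could only rise. Over all tested genes 40.5% were called higher and 46.0% lower. Of 12 lymphoid markers, 11 reached 1 FPKM in no library, with sums of 3.13 to 3.6 FPKM in nanoparticle libraries and 1.28 to 1.45 FPKM in PBS libraries, and Lck (0.41) rose. The part of these markers in the rise of Irf8 and Irf5 was not tested.

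The label of the cells as a mammary carcinoma line was read against epithelial markers. Krt8 averaged 343 ± 0.924 FPKM in nanoparticle cells and 215 ± 2.58 FPKM in PBS cells, and Krt18 averaged 685 ± 22.7 FPKM in nanoparticle cells and 514 ± 6.33 FPKM in PBS cells (SD, n = 3 each). Krt7 rose by 0.40 on the log2 scale. Of the 10 markers, 4 stayed under 1 FPKM in every library, among them Epcam, named after its values were seen, and of the 6 tested 5 rose, where 40.5% of all tested genes were called higher. Of 10 fibroblast and endothelial markers, 7 never reached 1 FPKM. The 3 tested all fell, where 46.0% of all tested genes were called lower: log2 fold changes were -1.90 for Pdgfra, -1.89 for Cdh5 and -1.74 for Pdgfrb. Pdgfra averaged 4.76 ± 0.344 FPKM in nanoparticle cells and 20.5 ± 0.255 FPKM in PBS cells (SD, n = 3 each).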

How the data were processed

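The authors deposited 1 table of 22806 features for 6 libraries. Its values are FPKM, by the look of the deposited values, since the header names no unit. The tools named per the submitters' processing notes are featureCounts and STAR, with the builds GRCm38 and mm10. Versions, and the program that made the FPKM values, were not given in the sources used. The 701 rows without an Ensembl gene identifier (0.631% to 0.67% of a library's summed FPKM) were left out. TRIzol was used for RNA, followed by mRNA enrichment, per the labels' protocols.

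The test took the 10863 genes that reached 1 FPKM in 3 libraries or more, on log2(FPKM + 1) with limma 3.58.1 in R 4.3.3 (trend and robust settings, no replicate block), nanoparticle minus PBS, with Benjamini-Hochberg adjustment over all tested genes and calls at an adjusted p under 0.05. The test was checked on simulated data with independent noise and 200 changed genes. In the real data 86.4% of tested genes were called, so that check does not cover this setting. Whole reads could not be used, so depth is unknown and counting intervals cannot be given. Positions, spans and exonic lengths came from GENCODE M21 (GRCm38), and promoters from RefSeq (GRCm38.p6), matched by gene ID (8704 genes), symbol (33) or synonym (37). Figures and counts used Python 3.11.15 with pandas 2.3.3 and scipy 1.17.1.

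The members, gene lists and rules were chosen with earlier results of these data known. Named genes were the 8 members, in each list the 3 genes of smallest adjusted p, Ifnb1, Tlr7 and Tlr8, and the 3 genes nearest to each member that changed at least 2-fold; a gene outside this rule is marked as named after its values were seen. The alternatives were another pseudocount, filter, threshold or scaling, a replicate block, a test against a 1.5-fold change, removal of the trend with span and length, and each library left out. Some members of the lists on interferon receptor signalling are not reported here, and no counts are given for those lists.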

Additional observations from a re-analysis of the deposited data

How the results depend on the processing

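Irf1, Irf2, Irf5, Irf7, Irf8 and Irf9 kept their direction and their call under all 15 alternatives run, with adjusted p of at most 0.000509 (limma). The log2 fold change of Irf3 was -0.070 when rescaled to TPM (not called), a scale that moved the median of all tested genes by -0.15, and -0.44 after removal of the span and length trend (called lower), where 2 members were called lower in place of 1. Without nanoparticle replicate 3, Irf3 passed as higher, and without a filter on low values Irf4 did, which gave 6 members called higher in both cases, against 5. Irf4 lies at the floor, where nanoparticle libraries held more genes above 0 in general, so its call is not read as a rise. Without that filter 8445 of 20124 genes were called higher, against 4395 of 10863. Against a 1.5-fold change 1853 genes were called higher and 2341 lower (against 4395 and 4996), motif genes 107 and 47 (against 190 and 93), and lower genes of the pathway lists 8 (against 27). The causes of these changes were not tested, except that the last test asks for a larger change. With a replicate block the members' counts were 5 higher and 1 lower, and it changed no member's call. Same-numbered libraries showed no shared deviation from their group means (correlations -0.014, -0.043 and 0.041). With 3 libraries in a group this cannot exclude that they were handled as pairs. Counting only the bases before the start, or leaving out genes of the IRF lists, both chosen after the data were seen, left 162 and 172 motif genes called higher and 77 and 92 lower. Leaving out any 1 library kept the sign of all 3 pair ratios. The unknown depth limits what can be said of Irf4, Ifnb1, Tlr7 and Tlr8, which lie near the floor.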
